A study of Mus musculus with 12 samples.

Results

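Zscan4c, Zscan4d, Zscan4f, Tcstv1, Tcstv3 and Zfp352 are genes transcribed in the mouse embryo at the two-cell stage. They were followed here in J1 mouse embryonic stem cells through every array probe whose transcript accession mapped to one of the 6 symbols. On the array design used for vitamin C, 8 of 41174 probes qualified, and they covered 4 of the 6 genes. On the design used for retinoic acid, 8 of 55681 probes qualified, covering 5 of the 6. Of the 20959 genes matched over both designs, 5 were therefore members. No probe of either design matched Zscan4d, and Zscan4f was matched on the retinoic acid design alone. Each probe is given by itself, because the Zscan4 genes and the Tcstv genes have near-identical copies whose transcripts may bind the same probe.

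The series set out to find genes under the control of vitamin C or of retinoic acid in this cell line. J1 cells were grown on gelatin in serum replacement medium with leukaemia inhibitory factor (LIF) at 1000 U/mL, a cytokine that keeps mouse stem cells undifferentiated, and all groups shared these conditions. For 24 h they received vitamin C (VC, 50 µg, with no volume stated), its ddH2O control (1 µL), retinoic acid (RA, 1 µM) or its DMSO control (1 µL). Each of the 4 groups had 3 samples, and the labels do not say whether these came from separate cultures, so the p-values measure the spread between samples, which may be technical. All cells are of 1 line, J1, and the labels name no reporter or transgene.

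In the embryo these genes are switched on when the zygotic genome is first transcribed in earnest, and they are silenced soon after. In cultured embryonic stem cells the same genes are known to be expressed together in a small, shifting minority of cells, the two-cell-like cells, in which the transcription factor Dux acts upstream. Zscan4 proteins carry a SCAN domain and zinc fingers and are known for their part in telomere maintenance and genome stability. Tcstv1 and Tcstv3 are small proteins of a two-cell-stage gene family, and Zfp352 is a zinc finger gene of the same stage. Vitamin C is a cofactor of iron-dependent dioxygenases, including the TET enzymes that oxidise methylated DNA, and retinoic acid is the ligand of the nuclear retinoic acid receptors.

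Promoters are shown first, because they let a reader see how alike the Zscan4 copies are and that the Zfp352 window differs from them. RefSeq windows from 250 bases before to 50 bases after the annotated start were found for 4 of the 6 genes (build GRCm38.p6). The Zscan4c window lies at chr7:11005495-11005794 on the plus strand and the Zscan4f window at chr7:11397665-11397964 on the plus strand. The Zfp352 window lies at chr4:90218570-90218869 on the plus strand. Capitals mark TATAAA and, read on the other strand as TGACCT, the nuclear receptor recognition core AGGTCA in the Zscan4 windows. In the Zfp352 window they mark copies of GACAACACACC.
Zscan4c promoter: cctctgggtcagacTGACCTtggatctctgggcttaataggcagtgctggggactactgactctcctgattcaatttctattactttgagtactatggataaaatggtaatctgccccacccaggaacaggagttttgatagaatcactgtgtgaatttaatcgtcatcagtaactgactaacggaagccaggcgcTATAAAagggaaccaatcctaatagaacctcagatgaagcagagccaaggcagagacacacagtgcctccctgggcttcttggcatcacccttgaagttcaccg
Zscan4f promoter: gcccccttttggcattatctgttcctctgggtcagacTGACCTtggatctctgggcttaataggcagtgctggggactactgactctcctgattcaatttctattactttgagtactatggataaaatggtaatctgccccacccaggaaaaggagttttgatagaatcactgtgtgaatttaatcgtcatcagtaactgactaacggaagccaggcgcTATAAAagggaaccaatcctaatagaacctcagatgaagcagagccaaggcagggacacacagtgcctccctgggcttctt
Zfp352 promoter: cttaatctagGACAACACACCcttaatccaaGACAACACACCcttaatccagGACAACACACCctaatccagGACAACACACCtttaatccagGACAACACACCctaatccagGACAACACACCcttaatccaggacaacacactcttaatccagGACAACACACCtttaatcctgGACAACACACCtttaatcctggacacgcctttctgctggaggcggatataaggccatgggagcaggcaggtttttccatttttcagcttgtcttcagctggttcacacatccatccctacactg

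The Zscan4c and Zscan4f windows were identical at 275 of 277 aligned bases (99.28%). The Zscan4d window (chr7:11166099-11166398, minus strand) matched Zscan4c at 281 of 289 aligned bases (97.23%) and Zscan4f at 259 of 266 (97.37%). Each of the 3 Zscan4 windows held 1 TATAAA, whose first base stood at position -54 in Zscan4c, -65 in Zscan4d and -31 in Zscan4f from the annotated start. Each also held 1 AGGTCA, the core bound by many nuclear receptors, on the opposite strand. Searched on both strands, TATAAA was present in 13.6% and AGGTCA in 16.3% of 32851 RefSeq promoter windows of the same length. Zfp352 had no AGGTCA and no exact TATAAA, though its window holds TATAAG, a near match that was not searched for. It held 8 copies of GACAACACACC. This word was found by searching the window for the longest one that recurs 8 times, so was chosen after its sequence was seen. That motif was in 3 of the 32851 windows, and 1 window, that of Zfp352 itself, held as many as 8 copies. The search motifs do not overlap one another, and a match is a description of letters, not evidence of binding.

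The 75th percentile intensity by which levels are divided was 496 to 673 on VC and 563 to 699 on ddH2O arrays. It was lower on RA arrays, at 288 to 388, than on DMSO arrays, at 608 to 612, and its part in the RA values was not tested beyond the other scalings. The lowest signal called well above background, as a level, was 0.0138 to 0.0306 on RA and 0.0145 to 0.0151 on DMSO arrays. The share of probes well above background was 66.9% to 70.3% on VC and 68.5% to 68.6% on ddH2O arrays, and 60.8% to 64.6% on RA and 65% to 65.6% on DMSO arrays. Across the probes tested in each comparison, as defined below, VC and ddH2O arrays correlated at 0.991 to 0.994 between groups. That range overlapped the range within groups. RA and DMSO arrays correlated at 0.911 to 0.919 between groups and at 0.989 to 0.997 within them. Levels below are linear signals divided by the 75th percentile of the array's non-control spots, and differences are on the log2 scale of those levels. A probe was tested if its signal was well above background on 3 or more of 6 arrays, and called at a limma adjusted p under 0.05.

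With vitamin C the two-cell-stage genes were lower. Of the 7 probes tested, 6 fell by limma and none rose, where 5.32% of all 28157 probes tested were called lower and 2.97% higher. The groups did not overlap for any of the 7, with VC below ddH2O, as held for 18.2% of all probes. The 7 log2 differences ranged from -1.13 to -0.45 with a median of -0.84, against a median of 0.01 over all probes tested. In bulk RNA, fewer two-cell-like cells and less of these transcripts per cell cannot be told apart.

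Among the Zscan4 probes on this design, both of Zscan4c fell. Zscan4c probe A_52_P302671 had levels of 2.68, 2.48 and 2.47 in VC, against 3.36, 3.49 and 3.59 in ddH2O. The highest VC array was thus below the lowest ddH2O array, a 1.37-fold lower level in VC (log2 difference -0.45, SE 0.06, limma adjusted p = 0.0196). Zscan4c probe A_52_P363843 had levels of 0.286, 0.226 and 0.244 in VC, against 0.420, 0.354 and 0.391 in ddH2O. It was 1.54-fold lower in VC (log2 difference -0.63, SE 0.11). The call was made at a limma adjusted p of 0.0291, and the groups were likewise apart.

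Tcstv1 was measured by 3 probes. Tcstv1 probe A_51_P481777 gave the tightest values, 0.593, 0.599 and 0.597 in VC against 1.08, 1.03 and 1.08 in ddH2O. It fell 1.78-fold in VC (log2 difference -0.84, SE 0.06, limma adjusted p = 0.00827). Tcstv1 probe A_52_P66425 had 0.499, 0.499 and 0.445 in VC, against 0.807, 0.853 and 0.688 in ddH2O. All VC arrays were again below all ddH2O arrays, and the fall was 1.62-fold (log2 difference -0.70, SE 0.10, limma adjusted p = 0.0206). Tcstv1 probe A_51_P481768 had 0.0800, 0.0684 and 0.0452 in VC, against 0.134, 0.111 and 0.114 in ddH2O. It did not pass the test (log2 difference -0.92, SE 0.21, limma adjusted p = 0.0518), with VC replicate 3 well below the other VC arrays.

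Tcstv3 probe A_51_P143200 had levels of 0.179, 0.159 and 0.136 in VC, against 0.315, 0.283 and 0.285 in ddH2O. The groups were apart and the fall was 1.87-fold (log2 difference -0.91, SE 0.11, limma adjusted p = 0.0172). Zfp352 fell too, and its rank below holds for these settings alone. Zfp352 probe A_51_P136390 had levels of 0.0269, 0.0312 and 0.0259 in VC, against 0.0614, 0.0590 and 0.0634 in ddH2O. This dim probe fell 2.19-fold in VC (log2 difference -1.13, SE 0.09, limma adjusted p = 0.0104). In size that difference ranked 58 from the bottom of the 28157 probes. The 7 probes took ranks from 58 to 1598. The other Zfp352 probe, A_52_P106585, was well above background on 0 VC arrays and 1 ddH2O array and was not tested. In 1 alternative, normexp background correction was combined with quantile normalization and spots of high local background were left out. The log2 differences of Zfp352, Tcstv3 and Tcstv1 probe A_51_P481768 were then smaller, at -0.32, -0.57 and -0.38, and which of these steps reduced them was not tested.

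**Figure D1:**
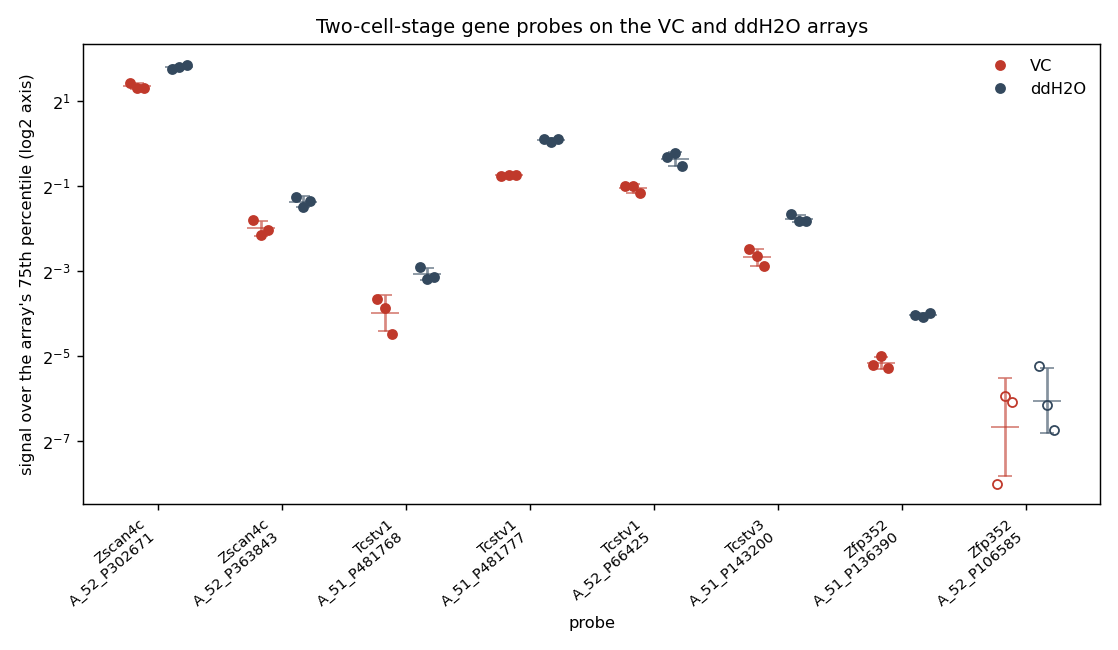
Signal over the array's 75th percentile (log2 axis) for the 8 probes on the VC arrays (red, left) and ddH2O arrays (dark blue, right), 1 point per sample, with bars for mean ± SD of the log2 values (n = 3). Open points mark the Zfp352 probe that was not tested; in the other 7 probes every VC point lies below every ddH2O point.

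The vitamin C and water arrays were spread over 3 slides. VC replicates 1 and 2 and ddH2O replicates 2 and 3 shared 1 slide, ddH2O replicate 1 was on another, and VC replicate 3 was on the remaining slide, scanned on another day. Within the shared slide all 7 differences were below 0, from -1.08 for Zfp352 to -0.46 for Zscan4c probe A_52_P302671. Between VC replicate 3 and ddH2O replicate 1, on the other slides, the 7 differences ran from -1.56 to -0.44. Tcstv1 probe A_51_P481768 moved most between these views, at -0.60 within the shared slide and -1.56 outside it. With slide as a block, no probe on the array passed the threshold by limma, and 6068 had an unadjusted p under 0.05. The 7 adjusted p-values were then 0.110 to 0.155, with unadjusted p-values of 0.000199 to 0.0140. Calls were also lost for all probes, the 6 members called included, when VC replicate 1, ddH2O replicate 1 or ddH2O replicate 2 was left out, or when dim probes were not filtered. Without the filter the adjusted p-values of the 7 were 0.0529 to 0.130.

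**Figure D2:**
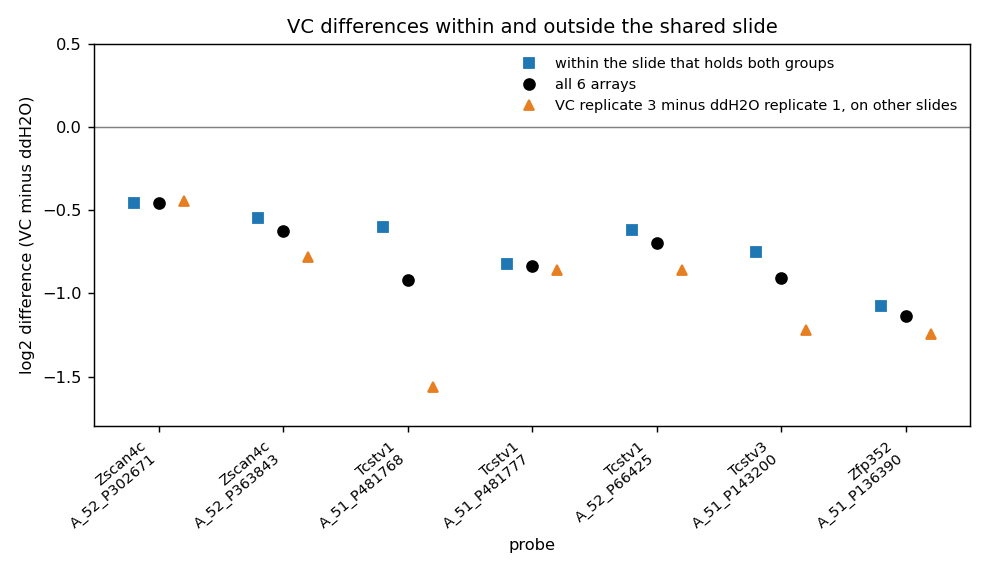
Log2 difference (VC minus ddH2O) of the 7 tested probes within the slide that held both groups (blue squares), over all 6 arrays (black circles) and between VC replicate 3 and ddH2O replicate 1 on other slides (orange triangles). All 21 points are below 0, and Tcstv1 probe A_51_P481768 shows the widest gap, from -0.60 to -1.56.

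With retinoic acid the same genes were far higher. Of the 8 probes tested, 7 rose by limma and none fell, where 36% of all 37046 probes tested were called higher and 35.5% lower. The 7 that rose did so by 29.8-fold to 48.2-fold, and their groups did not overlap, as held for 38.5% of all probes. The median log2 difference of the 8 was 5.34, against 0.03 over all probes tested, and the 7 took ranks 191 to 371 from the top. All RA arrays were on 1 slide and all DMSO arrays on another, so slide and treatment cannot be told apart in any RA value.

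All 4 Zscan4 probes rose. Zscan4f probe A_55_P2007986 had 125, 121 and 111 in RA, against 3.35, 3.04 and 3.1 in DMSO. That was a 37.6-fold rise (log2 difference 5.23, SE 0.08, limma adjusted p = 4.75e-07). Zscan4c probe A_55_P2019533 had 95.4, 84.9 and 71.9 in RA, against 1.99, 1.82 and 1.88 in DMSO. It rose 44.1-fold (log2 difference 5.46, SE 0.12, limma adjusted p = 8.54e-07). Zscan4c probe A_55_P2007017 had 75.1, 66.8 and 55.2 in RA, against 1.46, 1.27 and 1.36 in DMSO, a 47.8-fold rise. Zscan4c probe A_52_P363843, which was also on the vitamin C design, had 6.48, 7.40 and 5.37 in RA, against 0.224, 0.211 and 0.206 in DMSO. Its rise of 29.8-fold (log2 difference 4.90, SE 0.13) was the smallest of the 7. On the log2 scale it was smaller by 0.68 and 0.57 than the rises of the other two Zscan4c probes.

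Tcstv1 probe A_51_P481768 had levels of 3.87, 3.95 and 3.11 in RA, against 0.0950, 0.0914 and 0.0760 in DMSO. This was a 41.6-fold rise (log2 difference 5.38, SE 0.14, limma adjusted p = 1.36e-06). Tcstv3 probe A_51_P143200 had 6.46, 6.01 and 6.03 in RA, against 0.147, 0.164 and 0.157 in DMSO. It rose 39.5-fold (log2 difference 5.31, SE 0.08, limma adjusted p = 4.39e-07). The Zscan4 and Tcstv genes, on chromosomes 7 and 13, thus rose by log2 differences between 4.90 and 5.58. RA replicate 3 was the lowest RA array in 6 of the 8 probes, by amounts small beside the rise. With normexp correction, quantile normalization and spots of high local background left out, the rises of Tcstv1 and Tcstv3 were 4.11 and 4.47 on the log2 scale, and those of the other probes called lay between 2.52 for Zfp352 and 5.61 for Zscan4c.

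The probes of Zfp352 disagreed in retinoic acid. Zfp352 probe A_55_P2182056 had levels of 0.921, 0.876 and 0.740 in RA, against 0.0156, 0.0160 and 0.0212 in DMSO. It rose 48.2-fold (log2 difference 5.59, SE 0.15, limma adjusted p = 1.68e-06), a size that rests on DMSO signals of which 1 of 3 was well above background. Zfp352 probe A_55_P2060343, with the same accession, had 7.16, 6.34 and 8.79 in RA, against 8.67, 7.6 and 8.04 in DMSO. Its groups overlapped and it was not called (log2 difference -0.14, SE 0.14, limma adjusted p = 0.399). The responses of the 2 probes differed by -5.73 log2 units, or by -2.39 with normexp correction, quantile normalization and spots of high local background left out. With 3 arrays against 3 an exact two-sided permutation p cannot fall below 0.1, the value found. The files do not show which transcript A_55_P2060343 reads. Its value moved with the scaling, from -0.48 with median scaling, where limma called it lower (adjusted p = 0.0100), to 0.12 with quantile normalization. Median scaling shifted the median of all probes to -0.31.

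**Figure D3:**
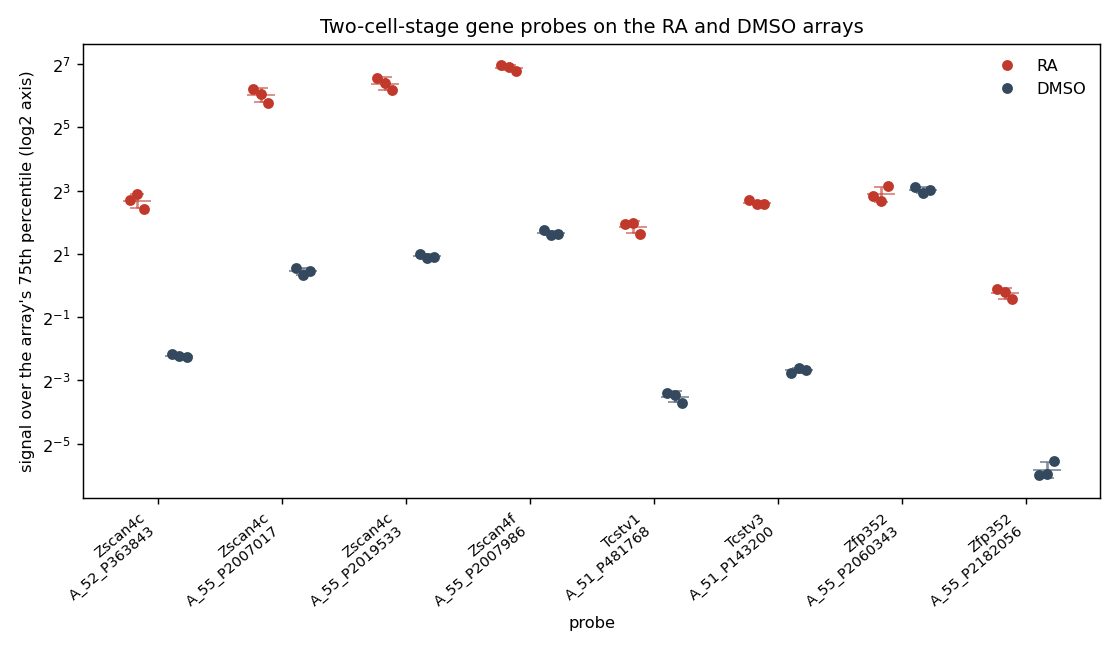
Signal over the array's 75th percentile (log2 axis) for the 8 probes on the RA arrays (red, left) and DMSO arrays (dark blue, right), 1 point per sample, with bars for mean ± SD of the log2 values (n = 3). In 7 probes the RA points lie far above the DMSO points, and for Zfp352 probe A_55_P2060343 they overlap.

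On both designs stood 3 member probes, each below its control in VC and above it in RA. Tcstv3 probe A_51_P143200 had log2 differences of -0.91 in VC and 5.31 in RA, and Zscan4c probe A_52_P363843 of -0.63 and 4.90. Tcstv1 probe A_51_P481768 was at 5.38 in RA and at -0.92, without a call, in VC. The designs were scaled and fitted separately, the 2 comparisons have their own controls, and the difference between them was not tested.

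**Figure D4:**
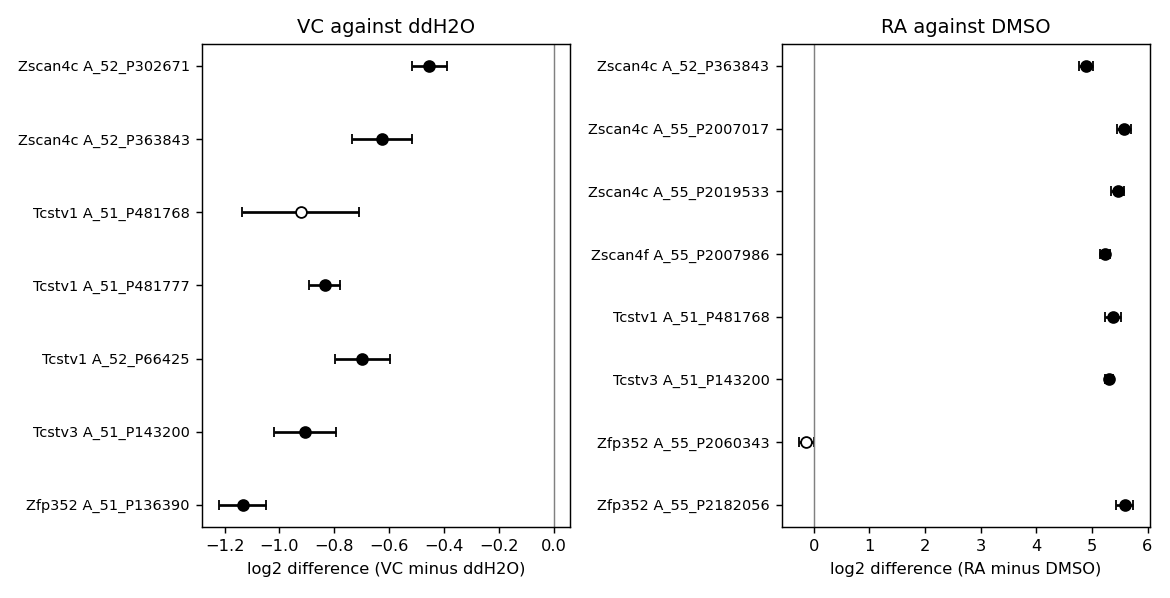
Log2 differences of the tested probes (7 in VC minus ddH2O, left panel; 8 in RA minus DMSO, right panel; the axes differ in scale), with bars of 1 SE. Filled points were called by limma: 6 in VC, all below 0, and 7 in RA, all above 0.

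Other genes of the two-cell stage moved with the members in both comparisons. The list held 51 names, of which 39 matched a current symbol, and each gene was read by its brightest probe. In VC, 7 of 13 tested genes fell and none rose, where 5.32% of all probes tested were called lower and 2.97% higher. The median log2 difference of the 13 was -0.47. Gm428 fell by 0.80, Arg2, an arginase gene, by 0.77, Gm8300 by 0.76 and Gm4340 by 0.65 on the log2 scale. Gm5662 fell by 0.52, Sp110, a nuclear body protein gene, by 0.40 and the deubiquitinase gene Usp17la by 0.36. For Gm4340 the levels were 2.74, 2.42 and 2.51 in VC, against 4.06, 3.92 and 4.01 in ddH2O, which is a clear gap beside the spread (limma adjusted p = 0.0138). The other 6 tested genes were not called, with values from -0.95 for Gm5039 to 0.06 for Pramel48. Among them, AF067063 was at -0.14 by its brightest probe, but at -0.66 and called lower by its other probe (limma adjusted p = 0.0127). Gm8300, called by its brightest probe, was at -0.89 without a call by its other probe (limma adjusted p = 0.0616). All calls of this list were lost, as were those of the members, under the settings in which no probe on the array was called. Over the 16 alternatives 0 to 8 genes of the list fell in VC. The summed level of the list was 8.62 to 9.77 in VC and 13.1 to 14.0 in ddH2O.

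In RA, 26 of 27 tested genes of this list rose and 1 fell, where 36% of all probes tested were called higher and 35.5% lower. The median log2 difference of the list was 4.45, or 4.15 with genes dim on every DMSO array at their lower bound. Zscan4a, a further copy of the Zscan4 cluster, rose 45.9-fold (log2 difference 5.52, SE 0.11, limma adjusted p = 6.33e-07). Its levels were 87.1, 75.8 and 67.7 in RA, against 1.69, 1.64 and 1.67 in DMSO. Gm4340 rose 60.5-fold, with levels of 98.2, 92.2 and 91.1 in RA against 1.62, 1.5 and 1.54 in DMSO. The Prame-like gene Pramel31 had a log2 difference of 5.56 and AF067061 of 5.43. A further Prame-like gene, Pramel48, was not well above background on any DMSO array, and its rise is given as at least 26.6-fold by the scaling used here. Pramel17, well above background on 1 DMSO array, had a fitted log2 difference of 6.86. With normexp correction, quantile normalization and spots of high local background left out, the fitted values of Pramel17 and Pramel48 were 3.11 and 1.85. The gene counted as falling, by its brightest probe, was Sp110 (log2 difference -0.30, limma adjusted p = 0.0128). That call was lost in 5 of 14 alternatives: quantile normalization alone or after normexp, the authors' series values, the replicate block, and without DMSO replicate 1. Its probes disagreed as those of Zfp352 did, since the other Sp110 probes rose by 4.92 and 2.93 on the log2 scale, and both were called. The summed level of the list, in which the bright Sp110 probe is counted, was 436 to 467 in RA and 98.5 to 105 in DMSO. That probe alone had levels of 67.0, 71.7 and 74.4 in RA, against 90.8, 84.1 and 87.3 in DMSO, so it made up most of the DMSO sum.

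Most known regulators of the two-cell-like state were not called in VC, and most were lower in RA. Of all probes tested in VC, 2.97% were called higher and 5.32% lower. Of 26 regulators tested in VC, 3 rose and none fell, with a median log2 difference of 0.09. Those were Zfp42 (0.37, limma adjusted p = 0.0260), the histone methyltransferase Setdb1 (0.36, adjusted p = 0.0412) and the dioxygenase Tet1 (0.34, adjusted p = 0.0381). Over the 16 alternatives in VC, 0 to 4 regulators rose and 0 to 1 fell. The limma adjusted p reached 0.127 for Zfp42 and 0.178 for Tet1. Tet1 had levels of 4.88, 4.43 and 4.83 in VC, against 3.56, 3.81 and 3.80 in ddH2O. The activators Dppa2 and Dppa4, at 0.14 and 0.18, were not called, nor was Tbx3, a T-box factor, at 0.26. The repressors Trim28 at 0.25, Rif1 at -0.03 (0.32 by its other probe), the demethylase Kdm1a at -0.04 and the chromatin assembly subunit Chaf1a at 0.02 were not called either. No probe on either design matched Duxf3, which encodes Dux.

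In RA, 21 of 27 regulators fell and 3 rose, where 35.5% of all probes tested were called lower and 36% higher. The regulators had a median log2 difference of -0.86. Over the 14 alternatives 18 to 24 fell and 1 to 5 rose, with 1 under median scaling and 5 under quantile normalization. Tet1 fell by 3.60 on the log2 scale, Dppa2 by 2.28, Tbx3 by 2.21 and Dppa4 by 2.15. Of the repressors, Rif1 fell by 1.52 and Trim28 by 1.31. Kdm1a fell by 0.40, a call lost with quantile normalization, alone or after normexp, and with the authors' series values, where its values reached 0.0400 and its adjusted p 0.563. Chaf1a was at 0.09 and not called (limma adjusted p = 0.303). It was called higher, at up to 0.35, under those same 3 alternatives and lower, at -0.25, under median scaling. Dppa2 had levels of 3.45, 3.33 and 3.28 in RA, against 16.6, 16.7 and 15.5 in DMSO. The 3 that rose were Gata2, a zinc finger factor, at 2.53, the polycomb protein Ring1 at 0.44 and Nelfa at 0.42. Known activators and repressors of the state were thus both among the genes that fell.

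**Figure D5:**
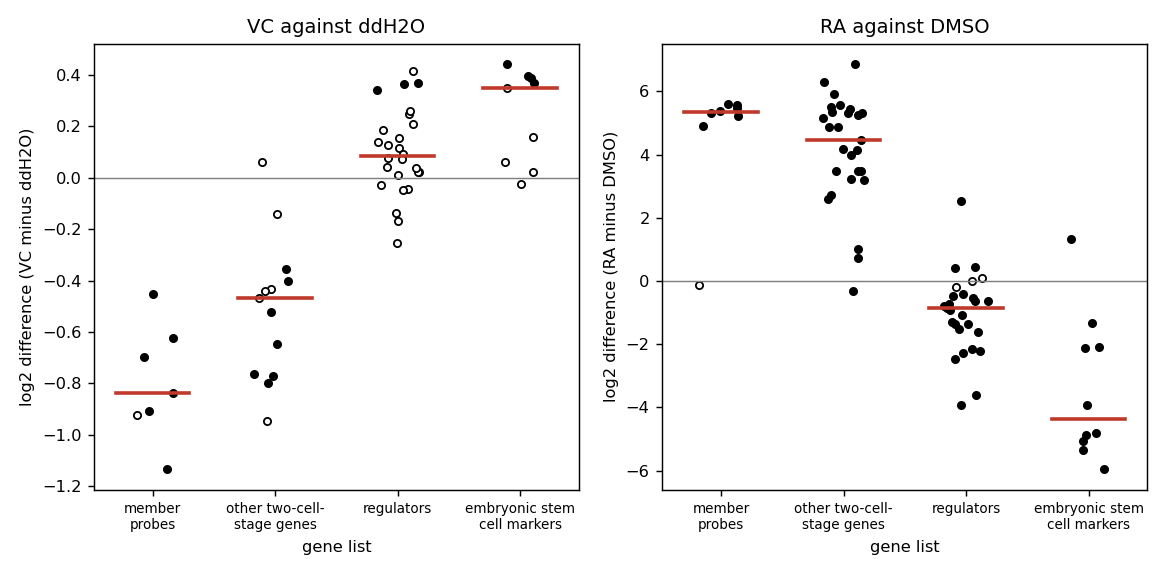
Log2 difference of each tested member probe and of the brightest probe of each tested gene in 3 lists, for VC minus ddH2O (left panel) and RA minus DMSO (right panel; the axes differ in scale). Filled points were called by limma, open points were not, and red lines are medians: -0.84 for members and -0.47 for other two-cell-stage genes in VC, against 5.34 and 4.45 in RA.

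Markers of the cells moved as well. Of all probes tested, 2.97% were called higher and 5.32% lower in VC, and 36% higher and 35.5% lower in RA. All 9 embryonic stem cell markers with a probe on the vitamin C design were well above background on every VC and ddH2O array. In VC, 4 of them rose, Klf4, Zfp42, Esrrb and Sall4, and none fell, and the octamer factor Pou5f1 was at 0.02 without a call. Over the 16 alternatives 0 to 4 of these markers rose in VC and none fell. In RA, 9 of 10 fell, Pou5f1 by 5.04 and Zfp42 by 3.92 on the log2 scale, and Nanog rose by 1.32. The summed level of these markers was 602 to 653 in VC and 563 to 643 in ddH2O, and 89.9 to 98.8 in RA and 568 to 585 in DMSO. Cyp26a1, the retinoic acid hydroxylase induced by its ligand, rose by 8.34 in RA (limma adjusted p = 2.90e-07).

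Markers of other cell types moved beside the members in RA, where 36% of all probes tested were called higher and 35.5% lower. In VC the shares were 2.97% higher and 5.32% lower. Of 8 fibroblast markers tested in RA, 7 rose and Thy1 fell, and the summed level of the list was 69.3 to 78.9 in RA and 2.54 to 2.72 in DMSO. Lum and Postn, the 2 listed fibroblast markers that were not tested, were not well above background on any RA or DMSO array. Of 10 primitive endoderm markers tested in RA, 9 rose and none fell, and the sum was 33.8 to 39.8 in RA and 12.3 to 13.6 in DMSO. In VC, 1 of 8 fibroblast markers rose and 1 fell, with sums of 14.0 to 14.2 in VC and 12.3 to 13.5 in ddH2O. Of 9 primitive endoderm markers tested there, Amn fell and none rose, with sums of 1.38 to 1.42 in VC and 1.57 to 1.59 in ddH2O. Over the 16 alternatives in VC, 0 to 1 fibroblast markers rose and 0 to 2 fell, and 0 to 2 primitive endoderm markers fell. The part of other cell types in the members' values was not tested.

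Genes were ranked by how close their log2 profile over the 6 arrays, centred on its own mean, lay to the median profile of the tested member probes. Closeness is the root mean square distance. In VC the nearest of 14495 genes were Msln at 0.0333, Nrp2 at 0.0443, Lhfpl2 at 0.0528, Cwh43 at 0.0602 and Gm20767 at 0.0633, where the median gene lay at 0.410. Msln encodes mesothelin and Nrp2 a neuropilin receptor, and their log2 differences were -0.77 and -0.81. The member probes themselves lay at 0.0726 to 0.219. In RA the nearest of 15999 genes were Tgfb3 at 0.0578, Tgfb2 at 0.0657, Ppbp at 0.0664, Olfr390 at 0.0670 and Usp17lb at 0.0685, where the median gene lay at 2.69. Tgfb3 and Tgfb2 are growth factor genes, with log2 differences of 5.24 and 5.32, and Usp17lb is on the list of other two-cell-stage genes. Ppbp and Olfr390 were not well above background on any DMSO array. With 2 groups of 3, such a ranking mostly finds genes with a difference of similar size.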

How the data were processed

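Total RNA of 12 samples was labelled with Cy3 and hybridised to 1-colour Agilent arrays of 2 designs. Per the file headers, the deposited values of a spot are a Cy3 intensity that Agilent Feature Extraction 10.7.3.1 had corrected for background. The submitters' processing notes give version 10.7. The deposited series values are log2, with column medians of 5.96 on the VC design and 5.18 on the RA design, and followed the scaled scanner values of the same arrays with slopes of 0.981 to 1.06 and correlations of at least 0.999. Their scaling is not given in the sources used.

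The log2 intensity minus each array's 75th percentile over non-control spots was used. Outlier-flagged spots were left out, spots of a probe averaged, and no member spot was saturated. Each design was fitted separately, per probe, with limma 3.58.1 in R 4.3.3 (lmFit, eBayes, Benjamini-Hochberg over all tested probes). The number of arrays limits the precision. A bound divides the bright group's mean by the dim group's, after raising each dim array's value, where below it, to that array's lowest signal called well above background. Accessions without versions were named through a RefSeq table (GRCm38.p6): 27479 of 41174 and 27235 of 55681 probes matched. File headers name build mm9, so gene names and chromosomes alone, and no coordinates for probes or genes, were taken from that table. Promoter windows carry their own GRCm38.p6 positions.

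Members and gene lists were chosen with earlier results of these data known. Named are all member probes, 9 set regulators, up to 6 other two-cell-stage genes per comparison with the largest called difference, the 5 genes nearest in profile, and Pou5f1, Zfp42 and Cyp26a1; other names complete small counts or head a range and were chosen after their values were seen. The fit was tested on simulated data. In VC it recovered 50% of 1.5-fold and 88% of 2-fold changes, with 5.75% counted as false. In RA it recovered 24% and 68%, with 6.85% counted as false. Alternatives were other scalings, background correction (normexp on the median signal, with no mean signal column, followed by quantile normalization, without spots of high local background), filters, blocks and samples left out.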

Additional observations from a re-analysis of the deposited data

How the results depend on the processing

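Over all probes in VC, 2333 calls became 0 with no filter on dim probes, with the replicate block and with slide as a block, where 7634, 7644 and 6068 probes had an unadjusted p under 0.05, and the 6 member calls became 0 in each. Leaving out 1 array gave 0 to 1038 calls over all probes and 0 to 5 over member probes, with 0 without VC replicate 1, ddH2O replicate 1 or ddH2O replicate 2, and 3 of 7 without VC replicate 3 or ddH2O replicate 3. Fewer arrays or residual degrees of freedom enter those fits. Same-numbered samples did not deviate together (correlations of -0.07 to 0.05), so the replicate numbers were not taken as pairs. Under the other 7 alternatives 2301 to 2936 probes and 6 or 7 of the member probes were called, and no VC member probe changed sign under any alternative. Calls that were higher made up 35.8% in VC, but 56.4% with median scaling. In RA they made up 50.3%, but 34% with median scaling and 63.6% with no filter.

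In RA 7 member probes were higher under each alternative except the filter for all 6 arrays, where Zfp352 probe A_55_P2182056 was not tested and 6 were, and the replicate block changed no call of a member probe. The difference between the Zfp352 probes moved to -5.22 with quantile normalization and to -2.39 with normexp followed by quantile normalization without spots of high local background, and lay between -5.95 and -5.59 with 1 array left out. Chaf1a in RA was at -0.25 and called lower with median scaling (adjusted p = 0.0414) but higher under 3 others, and Kdm1a in RA, lower in the report, lost its call under 3 alternatives and was at 0.0400 with the same normexp setting. The causes were not tested. Dim probes, such as those of Zfp352 in VC and in DMSO, lie near background, which limits their folds.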
